A study of Mus musculus with 4 samples.

Results

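The 92 genes described here had at least 2-fold higher normalised counts in neurons than in proliferating progenitors in each of 2 replicate pairs of iMOP cultures. iMOP cells are an immortalized mouse line of multipotent otic progenitors, cells that can give rise to the sensory neurons and sensory epithelium of the inner ear. The 4 libraries of stranded RNA sequencing were made from total RNA after ribosomal RNA depletion, with 2 libraries per group labelled as biological replicates. All cultures were wild-type. The proliferating cultures (replicates 1 and 2) grew in DMEM/F12 with B27, carbenicillin and bFGF at 20 ng/ml. The iMOP-derived neurons (replicates 1 and 2) grew in Neurobasal medium with N21, L-glutamine and K03861, an inhibitor of the kinase CDK2, at 1 µM. Medium, supplement, growth factor and inhibitor thus all differ between the groups and cannot be told apart, and the cells are 1 immortalized line. Both replicate 2 titles carry the words "set 2", whose meaning the labels do not state.

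The genes were selected on the neuron minus proliferating difference itself. The row of the 18S ribosomal RNA gene was dropped, counts were scaled to the remaining total and given as CPM, and differences were taken on log2(CPM + 0.5). A gene was a member if its mean count over the 4 libraries was 20 or more and its difference was 1 or more in replicate 1 and in replicate 2. Of 49997 gene rows, 10388 had that mean count and are called measured below. The thresholds were met by 93 of them (0.895% of the measured genes). Elavl4, one of 3 neuronal genes that were left out by name, was among the 93, whereas Neurod4 and Prox1 missed the threshold in pair 1 at 0.93 and 0.27. The neuron minus proliferating values of the 92 members are therefore a description of how they were chosen, not evidence for it.

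Otic progenitors leave the cell cycle and pass through proneural transcription factors such as Neurog1 and Neurod1 before they express the tubulins, neurofilaments, RNA-binding proteins and synaptic proteins of neurons. Extracellular signals, among them FGF, WNT and retinoic acid, pattern the same cells, and a basement membrane of type IV collagen and laminin lies under the otic epithelium. Genes transcribed from 1 stretch of chromosome or from overlapping units often change together, so position is described for the members as well as function.

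Sequences before start sites of 4 members and the RNA sequence of another are shown first, because these members are a retinoid receptor, a WNT antagonist, a progenitor transcription factor, an adhesion molecule and the most abundant member but one. Rarb encodes a receptor for retinoic acid. The 29 bases of the minus strand at chr14:16575507-16575535 (RefSeq, GRCm38.p6) precede one of its start sites and hold, in capitals, a direct repeat of the kind bound by retinoid receptors, with 5 bases between the copies (all 29 bases lie in GENCODE M21 exons):
Rarb: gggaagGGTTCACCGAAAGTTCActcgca
Nkd1 encodes a feedback inhibitor of WNT signalling. In the 120 bases before a RefSeq start site within its span (chr8:88527513-88527632, plus strand, GRCm38.p6) the capitals mark 2 copies of the E-box CAGCTG:
Nkd1: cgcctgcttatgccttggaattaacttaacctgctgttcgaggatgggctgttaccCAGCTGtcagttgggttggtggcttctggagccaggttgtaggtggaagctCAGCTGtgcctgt
Dbx1 encodes a homeodomain factor of neural progenitor domains, and Pcdh8 a protocadherin. In the 120 bases before their start sites (Dbx1, chr7:49636836-49636955; Pcdh8, chr14:79771313-79771432; both minus strand, GRCm38.p6) the capitals mark the TATA box TATAAA (14 of the Dbx1 bases lie in a GENCODE M21 exon):
Dbx1: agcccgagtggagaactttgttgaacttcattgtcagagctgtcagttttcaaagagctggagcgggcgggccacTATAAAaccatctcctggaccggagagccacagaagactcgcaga
Pcdh8: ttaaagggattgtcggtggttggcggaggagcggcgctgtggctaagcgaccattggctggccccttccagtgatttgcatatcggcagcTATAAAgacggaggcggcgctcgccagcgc
Gm24920 is a small nucleolar RNA gene at chr3:95090625-95090709 (GRCm38, GENCODE M21) inside the span of Pip5k1a. Its RNA is 85 bases long, and the capitals mark the 2 copies of CTGA, the letters of the D box of C/D small nucleolar RNAs, at positions 30 and 78:
Gm24920: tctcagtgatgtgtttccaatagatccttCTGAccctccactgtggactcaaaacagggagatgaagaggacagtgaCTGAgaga

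The 4 libraries held 7446361 to 14484011 counts. The 18S row took 53.3% and 59.4% of them in the proliferating and neuron libraries of replicate 1, and 75.0% and 76.1% in those of replicate 2. Without it, 2595578 to 3850766 counts remained, and 1 count was worth 0.260 to 0.385 CPM. Proliferating replicate 2 had the fewest counts and the fewest detected genes, 17761 against 20011 to 21636 in the other libraries. The labelled cell type was checked against neuronal genes. None of 20 measured pan-neuronal genes was a member, Elavl4 being left out by the rule, but with 0.886% of all measured genes being members a count of 0 in 20 says little. Of these 20 genes, 3 were higher in both pairs (15%, against 20.1% of all measured genes) and 5 were lower in both (25%, against 32.7%), with medians of -0.41 and 0.49. The 30 genes of that list summed to 1383 and 1940 CPM in the proliferating replicates 1 and 2 and to 1250 and 2047 CPM in the neuron replicates. Tubb3, the neuronal beta-tubulin, was at 67.1 and 551 CPM in proliferating cells and 88.8 and 296 CPM in neurons. Map2, a dendritic microtubule protein, was at 329 and 263 CPM and then 375 and 398 CPM, and Dcx, a protein of migrating neurons, at 80.3 and 43.9 CPM and then 69.9 and 111 CPM. Genes of the list thus went both ways. Isl1, a factor of otic neurons, had 0 counts in all 4 libraries, which allows up to 3 counts in each, and Neurog1 had 0, 0, 1 and 0 counts. The groups are therefore called by their labels, and the members are not called neuronal genes. In these bulk cultures, fewer cells of a type and less RNA per cell cannot be told apart.

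The number of members was set beside the same count with the replicate labels rearranged, as a description. When the 2 groups were exchanged within replicate 1, 180 genes were 2-fold apart in both pairs, and when they were exchanged within replicate 2, 33 were. When they were exchanged within both, which counts genes that were lower in neurons, the number was 269. With neuron replicate 1 set against proliferating replicate 2 and neuron replicate 2 against proliferating replicate 1, 64 genes were higher in both crossed pairs. Only 33 of the 92 members were among these 64. The number of members thus lay within the range of the rearranged counts. These counts draw on pools of unlike size, and 269 is itself the number of genes lower in both pairs. In pair 1, 254 measured genes were at least 2-fold higher and 1036 lower, and in pair 2, 1870 were higher and 1060 lower. Lying within the range therefore does not show that the number is no more than rearranging gives. Opposite 2-fold differences in the 2 replicates were found in 213 genes, which cover both opposite directions, 33 and 180. The same direction in both replicates was found in the 93 genes that met the thresholds and in the 269 lower ones. In the matched pairs, genes 2-fold apart in both thus more often had the same direction than opposite directions, mostly through genes lower in neurons. In the crossed pairs opposite directions were more frequent. There, 64 genes were higher in both and 246 were lower in both. Neuron replicate 1 was higher and neuron replicate 2 lower in 667 genes, and the reverse held in 86.

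**Figure D1:**
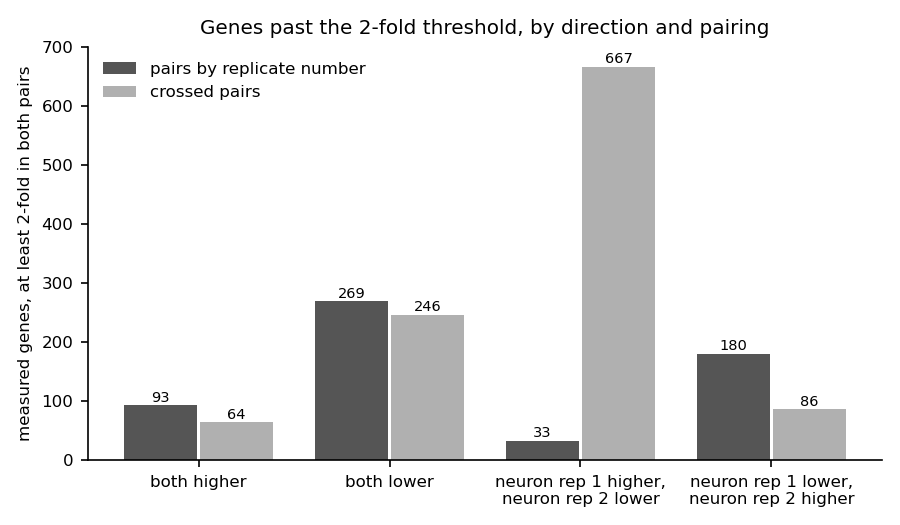
The bars count measured genes that differ at least 2-fold in both pairs, by direction (neuron against proliferating), for pairs matched by replicate number (dark) and for crossed pairs (light). The 93 genes higher in both matched pairs are fewer than the 269 lower in both and the 180 that are lower in replicate 1 and higher in replicate 2.

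Replicate 1 limited membership. In that pair, 254 measured genes were at least 2-fold higher in neurons, against 1870 in replicate 2. The median difference of all measured genes was -0.19 in pair 1 and 0.03 in pair 2 on the log2 scale, and that of the members was 1.34 and 1.78. The larger of the 2 differences was in pair 2 for 61 of the 92 members. Both differences were 2 or more in 11 members and 1.5 or more in 26. The groups did not overlap, with both neuron libraries above both proliferating libraries, in 57 of the 92 members, against 7.38% of measured genes with neurons higher. Since the rule used this contrast, that share describes the selection.

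**Figure D2:**
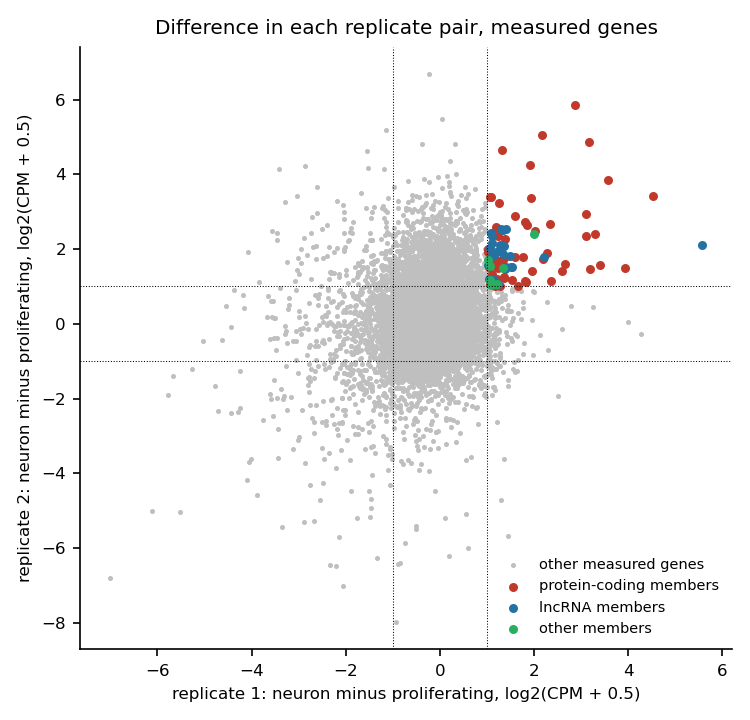
Each point is a measured gene, with its neuron minus proliferating difference in replicate 1 on the x axis and in replicate 2 on the y axis, both on log2(CPM + 0.5), and dotted lines at 1 and -1. The members fill the upper right corner, where most lie close to the threshold of replicate 1, and the lncRNA members (blue) lie between 1.02 and 2.21 on that axis except Gm6999 at 5.57.

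Across all genes, edgeR's quasi-likelihood test with Benjamini-Hochberg adjustment called 0 of 12783 tested genes higher in neurons (0%) at an adjusted p under 0.05, so 0 of the 92 members were called. At an unadjusted p under 0.05 it had 117 genes higher (0.915%) and 321 lower, and 50 members were among the 117. With the replicate number as a block, 0 genes (0%) were called higher and 345 (2.7%) had an unadjusted p under 0.05, among them 87 members. DESeq2 called 12 of the 11543 genes to which it gave an adjusted p (0.104%), and all 12 were members, namely Acss3, Aff3, Anxa6, Car14, Cavin2, Gm6999, Hr, Ildr2, Masp1, n-TGtcc7, Nkd1 and Pik3cg. Without the filter on low counts edgeR called 41 of 25859 genes (0.159%), 21 of them members. These calls use the contrast that chose the members. Without the block they are set only against the spread between the 2 cultures of each group. With the block they are set only against the disagreement between the 2 pairs.

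The members with the largest differences, Pik3cg, Anxa6, Aff3, Acss3 and Cavin2, were rare in proliferating cells. They met the minimum mean count only through the neuron libraries, so their low proliferating counts follow in part from the selection. Pik3cg (chr12:32173397-32208677), which encodes the catalytic subunit of a phosphoinositide 3-kinase that acts below G protein-coupled receptors, had 3 counts in proliferating replicate 1 and 1 count in proliferating replicate 2, against 60 and 42 in the neurons of these replicates. All its neuron counts lay above its proliferating counts, at 13.9 ± 2.44 CPM against 0.624 ± 0.338 CPM (SD, n = 2 each), and its differences of 3.56 and 3.83 were the largest by the smaller of the pair. With so few proliferating counts, the ratio in replicate 2 was 31.5 with a 95% counting interval of 5.35 to 1273. Anxa6 (chr11:54978953-55033471), which encodes a calcium-dependent membrane-binding annexin, had 1 and 1 counts in proliferating cells and 68 and 31 in neurons. Its groups were also apart, with differences of 4.53 and 3.42. Cavin2 (chr1:51289126-51302960), which encodes a coat protein of caveolae, had 14 and 1 counts in proliferating cells and 125 and 176 in neurons. Both neuron libraries were high, and the wide gap between its differences, 2.86 and 5.86, came with the single count in proliferating replicate 2.

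Aff3 (chr1:38175393-38630178), a nuclear protein of the AF4/FMR2 family of transcription elongation factors, had 6 and 1 counts in proliferating cells and 75 and 87 in neurons, with differences of 3.17 and 4.86. Acss3, a mitochondrial short-chain acyl-CoA synthetase, had 5 and 4 counts in proliferating cells and 62 and 52 in neurons. Its 2 libraries were close within each group, and its differences of 3.10 and 2.93 were close too. Masp1, a serine protease of the lectin pathway of complement, was at 9.21 and 4.24 CPM in proliferating cells and 48.3 and 29.8 CPM in neurons. Tent5c, a noncanonical poly(A) polymerase, had 16 and 0 counts in proliferating cells and 86 and 56 in neurons. The 0 of Tent5c allows up to 3 counts, or 1.16 CPM, in proliferating replicate 2, so its difference of 5.06 in replicate 2 depends on the pseudocount. Hr, a nuclear corepressor, had 9 and 5 counts in proliferating cells and 43 and 159 in neurons, and Zfp57, a zinc finger protein that maintains imprinted methylation, had 4 and 8 against 29 and 44. In both genes the neuron libraries were above the proliferating ones.

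For 2 of the 15 genes with the largest smaller differences the groups overlapped. Chrna4, the alpha-4 subunit of the nicotinic acetylcholine receptor, had 0 and 15 counts in proliferating cells and 17 and 114 in neurons. In CPM, proliferating replicate 2 (5.78) was above neuron replicate 1 (4.41), and the level followed the replicate as well as the group. Neb, which encodes the giant muscle protein nebulin, had 28 and 0 counts in proliferating cells and 131 and 8 in neurons. Proliferating replicate 1 of Neb, at 8.06 CPM, was above neuron replicate 2, at 2.31 CPM. Its span overlaps a measured lncRNA gene, Gm52510, with 31, 0, 92 and 1 counts in the same order.

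**Figure D3:**
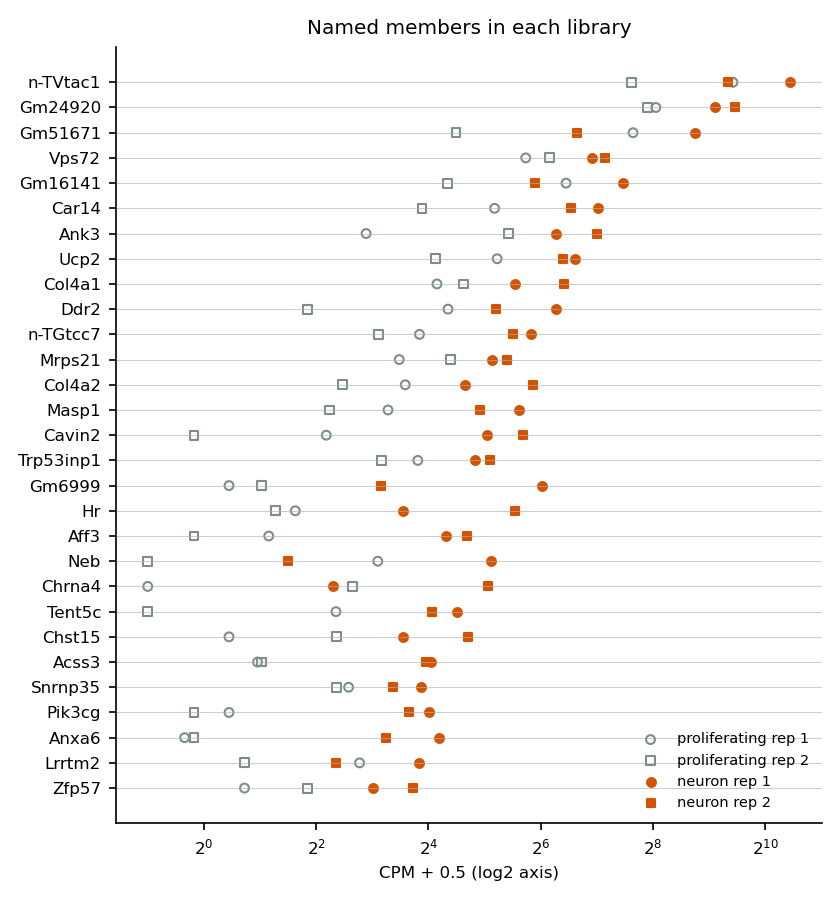
Each row is one of 29 members named by rule, and the symbols give CPM + 0.5 in each library on a log2 axis, open for proliferating and filled for neurons, round for replicate 1 and square for replicate 2. For genes such as Acss3, Pik3cg and Vps72 the filled symbols stand clear of the open ones, whereas for Neb, Chrna4, Gm51671, Gm16141, Lrrtm2 and n-TVtac1 they overlap.

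Low counts were common. At least 1 proliferating library held 3 counts or fewer in 22 members, 5 times in replicate 1 and 19 times in replicate 2. The mean count was 50 or more in 48 members and 100 or more in 22, with a median of 52.8 against 86 for all measured genes. The 95% counting interval of the ratio lay above 1 in both pairs for 84 members and above 2 in both pairs for 19. Since the rule required a 2-fold difference in each pair, these numbers of members describe the selection. The share over all measured genes was not computed. These intervals cover counting error only and leave out the spread between cultures. Since the counts carry no molecular identifiers, the intervals may not cover even the counting error in full. The library in which a member was lowest was proliferating replicate 2 for 67 of 92 and proliferating replicate 1 for the other 25. Among all measured genes 39.7% were lowest in proliferating replicate 2, the shallowest library, and 11.1% in proliferating replicate 1. Under the rule a member can be lowest only in a proliferating library, whereas a measured gene can be lowest in any library. The shares of members and of measured genes are therefore not alike.

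Several members encode parts of, or receptors for, the extracellular matrix. Col4a1 and Col4a2 encode the 2 chains of the most widespread type IV collagen and lie head to head on chromosome 8 (Col4a1, chr8:11198423-11312889; Col4a2, chr8:11312805-11449287), transcribed in opposite directions from a shared promoter region. Col4a1 had 60 and 63 counts in proliferating cells and 177 and 295 in neurons, and Col4a2 had 40 and 13 against 95 and 199. Both genes had groups that did not overlap, at 20.8 ± 4.95 against 65.6 ± 27.8 CPM for Col4a1 and 8.26 ± 4.60 against 41.1 ± 23.2 CPM for Col4a2 (SD, n = 2 each). The CPM ratios of neurons to proliferating cells in replicate 1 were alike, at 2.66 for Col4a1 and 2.14 for Col4a2, and in replicate 2 they were less so, at 3.51 and 11.5. Ddr2, a receptor tyrosine kinase that binds collagen, had 69 and 8 counts in proliferating cells and 297 and 125 in neurons. Of 18 measured genes of the extracellular matrix list, Col4a1 and Col4a2 were the members, 3 were higher in both pairs by any size (16.7%) and 10 were lower in both (55.6%), with medians of -1.05 and -0.34. For all measured genes, which are the background of this and the following lists, 0.886% were members, 20.1% were higher and 32.7% lower in both pairs, and the medians were -0.19 and 0.03. A further list of type IV collagen, basement membrane and collagen receptor genes was assembled after the values were seen and shares its collagens with the first. Of its 13 measured genes, Col4a1, Col4a2 and Ddr2 were the members, no other was higher in both pairs, and 6 were lower in both (46.2%).

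Among the enzymes of matrix polysaccharides, 3 were members, grouped after their values had been seen. Chst15, which sulfates chondroitin sulfate, was at 0.863 and 4.62 CPM in proliferating cells and 11.2 and 25.7 CPM in neurons. Pxylp1, which removes a phosphate from the xylose of the proteoglycan linker, was at 2.30 and 8.86 CPM and then 12.2 and 30.6 CPM. In both genes the replicate 2 libraries were the higher ones of each group, and the groups were apart. Has1, a hyaluronan synthase, behaved otherwise, at 5.47 and 0.771 CPM in proliferating cells and 20.3 and 2.31 CPM in neurons, so that proliferating replicate 1 exceeded neuron replicate 2. Of 25 measured genes for the synthesis of these polysaccharides, 3 were members (12%), 5 were higher in both pairs (20%, against 20.1% of all measured genes) and 10 were lower in both (40%, against 32.7%).

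Transcription factors of progenitor domains and of interneurons, together with Tbx18 of the periotic mesenchyme, made up another group, assembled after the values were seen. Dbx1 had 10 and 12 counts in proliferating cells and 42 and 59 in neurons, and its differences of 1.76 and 1.78 were nearly equal. Foxn4, a forkhead factor of retinal and spinal interneuron progenitors, had 16 and 6 against 45 and 89. Casz1, a zinc finger factor, had 19 and 18 against 53 and 81. All 3 had both neuron libraries above both proliferating libraries. Sox5, an SRY-related factor of neural progenitors and early neurons, was at 10.1 and 6.16 CPM in proliferating cells and 26.5 and 15.3 CPM in neurons. Tbx18, a T-box factor of the periotic mesenchyme, was at 13.8 and 6.55 CPM and then 32.7 and 19.6 CPM. Both were lower in replicate 2 within each group and kept the groups apart. Of 13 measured genes of this list, 5 were members, 6 were higher in both pairs (46.2%) and 3 were lower in both (23.1%), with medians of 0.66 and 0.94, against 20.1% and 32.7% and medians of -0.19 and 0.03 for all measured genes. Since its genes were listed with their values known, these counts support nothing. Among the 18 measured genes of the neuronal transcription factor list, none was a member, 7 were higher in both pairs (38.9%) and 4 were lower in both (22.2%).

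Members of the retinoic acid and WNT pathways were few, and the lists of both pathways were assembled after the values were seen. Rarb had 40 and 5 counts in proliferating cells and 107 and 41 in neurons. Its levels of 11.5, 1.93, 27.8 and 11.8 CPM in the same order put proliferating replicate 1 and neuron replicate 2 almost level. Crabp2, which carries retinoic acid to its receptors, had 4 and 7 counts in proliferating cells and 38 and 32 in neurons, with the groups apart. Rarb and Crabp2 were the 2 members among 11 measured genes of the retinoic acid pathway, of which 4 were higher in both pairs (36.4%) and 5 were lower in both (45.5%). Nkd1 was at 11.5 and 11.2 CPM in proliferating cells and 41.3 and 76.8 CPM in neurons, close in the proliferating replicates and higher in both neuron libraries. It was the 1 member among 10 measured WNT feedback and target genes, of which 3 were higher in both pairs (30%) and 4 were lower in both (40%). Vwc2, which encodes a secreted BMP antagonist, had 31 and 18 counts in proliferating cells and 84 and 71 in neurons.

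Members with roles in neurons were named after their values were seen, except Ank3 and Lrrtm2, and they did not share 1 pattern. P2rx3, an ATP-gated channel of sensory neurons, was at 8.06 and 7.32 CPM in proliferating cells and 25.4 and 26.6 CPM in neurons. Ank3, which encodes ankyrin-G, the scaffold of the axon initial segment, was at 6.91 and 42.4 CPM and then 77.1 and 127 CPM. Cyfip2, a subunit of the actin-regulating WAVE complex, was at 8.06 and 22.3 CPM and then 25.2 and 167 CPM. P2rx3 varied little between replicates, whereas Ank3 and Cyfip2 were higher in replicate 2 of each group, although for all 3 genes the groups were apart. Cadps2, a priming factor of dense-core vesicles, had 33 and 12 counts in proliferating cells and 85 and 96 in neurons, and Pcdh8 had 34 and 9 against 82 and 143. Lrrtm2, a postsynaptic adhesion protein, was the 1 member among 28 measured synapse and vesicle genes and had 22 and 3 counts in proliferating cells and 53 and 16 in neurons. Its groups overlapped, since proliferating replicate 1 was at 6.33 CPM and neuron replicate 2 at 4.62 CPM. Of the 28 genes, 3 were higher in both pairs (10.7%, against 20.1% of all measured genes) and 9 lower in both (32.1%, against 32.7%), with medians of -0.88 and 0.67.

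Enzymes and transporters gave some of the best counted members. Car14, a carbonic anhydrase of the cell surface, had 124 and 37 counts in proliferating cells and 497 and 319 in neurons. Ucp2, a carrier of the inner mitochondrial membrane, had 128 and 44 against 372 and 290. In both genes proliferating replicate 2 was the lowest library and the groups did not overlap, at 25.0 ± 15.2 against 111 ± 26.1 CPM for Car14 (SD, n = 2 each). Trp53inp1, a p53 target that promotes cell cycle arrest and autophagy, had 47 and 22 counts in proliferating cells and 108 and 117 in neurons. It was the 1 member among 23 measured genes of cell cycle exit and p53 response, of which 4 were higher in both pairs (17.4%, against 20.1% of all measured genes) and 8 were lower in both (34.8%, against 32.7%). None of 51 measured cell cycle genes was a member. That list had 20 genes higher in both pairs (39.2%) and 10 lower in both (19.6%).

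Among the protein-coding members in none of these groups, the differences were largest in Ildr2, Fndc3c1 and Trim66, which were picked for that. Ildr2, an immunoglobulin-like membrane protein, had 43 and 5 counts in proliferating cells and 121 and 211 in neurons. Fndc3c1, a fibronectin type III domain protein, had 5 and 5 against 112 and 22, and Trim66, a chromatin-binding TRIM protein, had 5 and 14 against 66 and 55. Their groups were apart. The groups were also apart in Veph1, Nsrp1, Nudt11, Rusc1, Sarnp, Ston1, Casd1 and Ap1s2, but not in Slc16a4, Gm52215, Mcur1, Plekha1, Erfe, LOC115488671, Cdhr1 and Ankrd7. In these genes the differences ran from 1.02, of Ankrd7 in replicate 1, to 2.60, of Gm52215 in replicate 2. They include the splicing and messenger RNA export factors Nsrp1 and Sarnp, the clathrin adaptor subunit Ap1s2, the photoreceptor cadherin Cdhr1 and Erfe, the hormone erythroferrone.

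No member was found among the measured genes of the remaining lists, which covered axon guidance and adhesion, chromatin and boundary, RNA splicing, cilium and centrosome, interferon, stress response, lipid, signalling, otic progenitor, glial, hair cell and mesenchyme genes. These lists held from 2 (mesenchyme) to 57 (chromatin and boundary) measured genes. With 0.886% of all measured genes being members, a count of 0 in lists of this size says little. Among genes of other cell types, the 17 glial genes summed to 645 and 618 CPM in proliferating cells and 286 and 103 CPM in neurons, the 13 hair cell genes to 100 and 58.9 and then 20.3 and 114 CPM, and the 15 mesenchyme genes to 955 and 2704 and then 783 and 590 CPM. Mag, a myelin gene, and Otof, a hair cell gene, had 0 counts in all 4 libraries, and Col1a1, a collagen of mesenchyme, had 2, 8, 2 and 0 counts. The summed glial and mesenchyme levels were thus lower in the neuron library of each replicate. The summed hair cell level was lower in neuron replicate 1 and higher in neuron replicate 2. Of these lists only 8 glial, 3 hair cell and 2 mesenchyme genes were measured, so the sums rest on few genes. The 2 measured mesenchyme genes had medians of 0.14 in pair 1 and -1.29 in pair 2. The part of these cells in the members' levels was not tested.

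The types of gene among the members differed from those of the measured genes, a property the rule did not use. Protein-coding genes made up 59 of the 92 members (64.1%), against 88.6% of measured genes. Long noncoding RNA (lncRNA) genes were 25 members (27.2%), against 3.71% of measured genes. There were also 4 tRNA genes, 1 small nucleolar RNA gene, 1 pseudogene of 5S RNA, 1 transcribed pseudogene and 1 gene of another type. No histone gene of 66 measured, no ribosomal protein gene of 102, no tubulin or kinesin gene of 46 and no sodium, potassium or calcium channel gene of 33 was a member, counts that are near the 0.886% of all measured genes. One of 17 measured protocadherin genes, Pcdh8, and 1 of 291 zinc finger genes with Zfp or Zscan symbols, Zfp57, were.

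The lncRNA members differed between the replicates as well as between the groups. Their median level was 14.7 and 2.31 CPM in the proliferating replicates 1 and 2 and 38.2 and 9.82 CPM in the neuron replicates. Proliferating replicate 2 was the lowest library for 24 of the 25, where the rule allows only a proliferating library to be lowest. For measured lncRNA genes, which can be lowest in any library, the share was 66.2%, with 5.45% lowest in proliferating replicate 1. Among the lncRNA members, proliferating replicate 1 was at or above neuron replicate 2 for 19, so that the groups stayed apart in 6. Over all measured genes, 6.75% of lncRNA genes and 6.75% of protein-coding genes had groups apart with neurons higher. Without proliferating replicate 2, 85 of the 92 members were higher in neurons by the mean difference, and the 7 that were lower included the lncRNA genes Gm36123, Gm46687, Gm52867 and Mir133a-1hg. The difference between replicate 2 and replicate 1, averaged over the groups, comes from the same 4 libraries as the rule, which favours a low value in proliferating replicate 2, so it is a description as well. It was below 0 for all 25 lncRNA members and at least 2-fold for 23, with a median of -2.27. Measured lncRNA genes as a whole had a median of -1.60, protein-coding members -0.36 and measured protein-coding genes -0.13. Among the 59 protein-coding members the groups were apart in 47, a count that the rule also bears on. Measured lncRNA genes also had higher medians in neurons, 0.32 in pair 1 and 0.69 in pair 2, than measured protein-coding genes, -0.22 and 0.02.

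**Figure D4:**
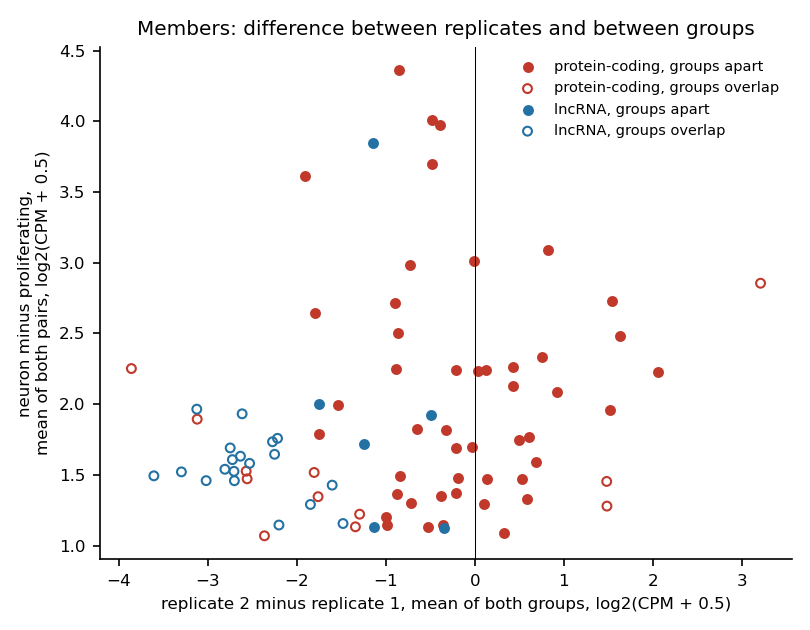
Each point is a protein-coding (red) or lncRNA (blue) member, with replicate 2 minus replicate 1, averaged over the groups, on the x axis and neuron minus proliferating, averaged over the pairs, on the y axis, both on log2(CPM + 0.5). Filled points have both neuron libraries above both proliferating libraries. The lncRNA members all lie left of 0, mostly open, and the protein-coding members spread to both sides, mostly filled.

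Examples of the lncRNA genes show the same order of libraries. Gm51671, the best counted of them, had 693 and 57 counts in proliferating cells and 1661 and 344 in neurons. Gm16141 had 302 and 51 against 681 and 204. In both, proliferating replicate 1 was well above neuron replicate 2. Gm6999 (chr14:79890972-79984136) differed, with 3 and 4 counts in proliferating cells and 248 and 29 in neurons, and it lies 119659 bases from Pcdh8, another member. Mir100hg and Mir133a-1hg are host transcripts of microRNAs, and their counts say nothing of the mature microRNAs. Mir100hg had 65 and 22 counts in proliferating cells and 164 and 65 in neurons.

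Many members lie within or across other genes. The span of 34 of the 92 members (37.0%) overlapped that of another measured gene, against 21.1% of all measured genes. For lncRNA genes the shares were 76% of 25 members and 78.2% of all measured lncRNA genes, so the members did not stand out among lncRNA genes. Protein-coding genes were overlapped by 18 lncRNA members, and of the 18 such genes 12 were higher in both pairs by any size, against 20.1% of all measured genes, and 1, Ypel2, was itself a member. Gm52631 and Gm46824 lie in the span of Ank2, whose differences were -0.16 and 0.47. Gm51629 lies across Map2, whose differences were 0.19 and 0.60. Ank2 and Map2 thus had smaller differences than the members that overlap them, which in part follows from the rule, since members must reach 1 in both pairs. Other overlapped genes varied. Hdac8, overlapped by Gm32262, differed by 0.66 and 1.64, and Mib1, overlapped by Mir133a-1hg, by 0.75 and 1.35. Apbb2, overlapped by Gm52775, was lower, at -0.56 and -1.16. Whether strand was used in counting is not given in the sources used here, so reads of a member and of an overlapping gene may not have been separated.

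Chromosome 3 held 15 members of its 572 measured genes (2.62%), or 16.3% of members against 5.51% of measured genes. Of these members, 8 lay between B230398E01Rik and n-TGtcc7, a stretch of 1541 kb (chr3:94959674-96501080) that was picked out after the values were seen. Of its 68 measured genes, 39 were higher in neurons in both pairs by any size, the 8 members among them, against 20.1% of all measured genes. The stretch was divided into 3 runs where the direction of the replicate 1 differences changed. The counts of the runs in replicate 1 therefore describe that division. In the first, from B230398E01Rik to Sema6c, all 11 genes were higher, with a median of 0.88. In the second, from Gabpb2 to Tars2, all 17 genes were lower, with a median of -1.15, and none was a member. In the third, from Rprd2 on, 33 of 40 genes were higher. In replicate 2 the middle run did not go down, with 13 of 17 genes higher and a median of 0.59.

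**Figure D5:**
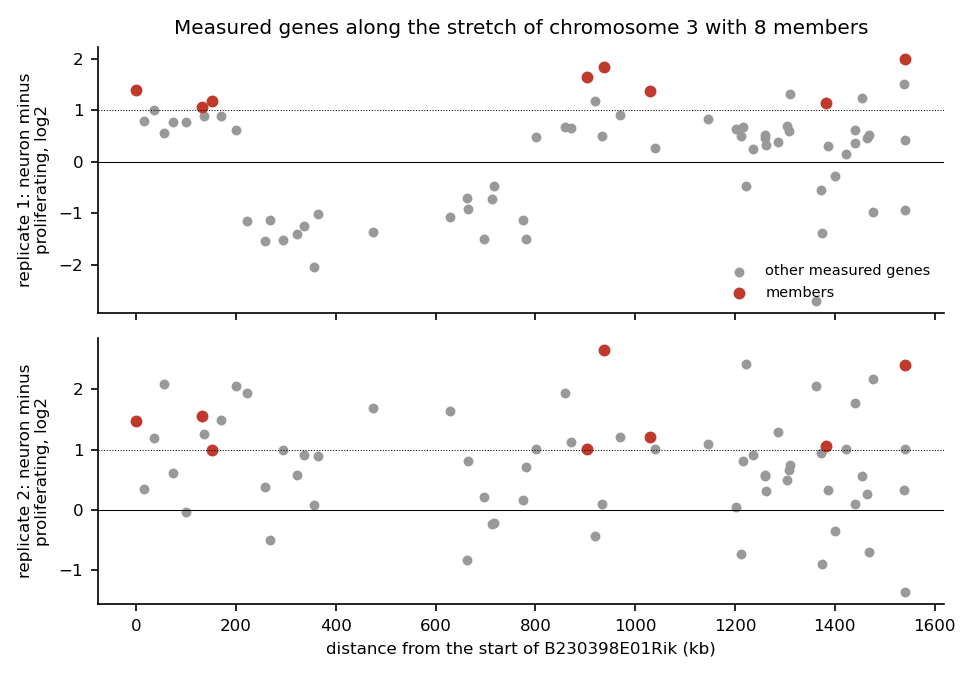
Each point is 1 of the 68 measured genes on the stretch, placed by distance in kb from the start of B230398E01Rik, with its neuron minus proliferating difference on log2(CPM + 0.5) in replicate 1 (top) and replicate 2 (bottom). Red points are the 8 members. In replicate 1, whose directions set the limits of the runs, the genes of the middle run all lie below 0 while the first run lies above 0. In replicate 2 the middle run has a median of 0.59.

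The members on this stretch differ in kind. Vps72 encodes a subunit of complexes that place the histone variant H2A.Z, and it had 183 and 183 counts in proliferating cells and 461 and 490 in neurons. Mrps21, a protein of the mitochondrial ribosome, had 37 and 53 against 133 and 144. Plekho1, a pleckstrin homology domain protein, had 91 and 77 against 263 and 241. These 3 and Car14 had groups that did not overlap. Gm24920, the small nucleolar RNA shown above, had 919 and 621 counts in proliferating cells and 2116 and 2433 in neurons, at 252 ± 17.8 and 626 ± 108 CPM (SD, n = 2 each). Its host Pip5k1a had 243 and 252 counts against 461 and 326. Scaled to the library totals, Pip5k1a differed by 0.77 in replicate 1 and -0.04 in replicate 2, against 1.05 and 1.55 for Gm24920. The host was thus not higher in neurons in replicate 2, where Gm24920 was. Gm24920 was the 1 member among 237 measured small nucleolar RNA genes. The tRNA gene n-TGtcc7 had 48 and 21 against 217 and 155. A tRNA sequence can occur in several genes, and the sources used here do not give the treatment of multiply aligned reads, so the level of n-TGtcc7, like that of n-TVtac1, the most abundant member at 685, 196, 1386 and 645 CPM, is uncertain.

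Across the genome, 18 members lay within 200 kb of another member. Besides those on the stretch of chromosome 3 and the collagen pair, they included Ypel2 with Gm51915, whose spans overlap, Gm52631 with Gm46824, elsewhere on chromosome 3, Pcdh8 with Gm6999, and 8430419K02Rik with Gm16141. Ypel2, a small conserved zinc-binding protein, had 18 and 14 counts in proliferating cells and 83 and 53 in neurons, and Gm51915 had 15 and 3 against 84 and 18.

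Promoter windows of RefSeq, from 250 bases before to 50 after a start site, were found for 64 members, 47 of them protein-coding. Motifs were searched on both strands. The observed to expected ratio of CpG had a median of 0.72 in protein-coding members and 0.84 in measured protein-coding genes, and it was below 0.4 in 9 of 47 (19.1%) against 5.02%. The GC box GGGCGG was present in 57.4% of protein-coding members and 72.5% of measured protein-coding genes. TATAAA was found in 12.8% against 8.21%, the E-box CAGCTG in 21.3% against 16.5%, the ETS motif CCGGAAGT in 4.26% against 10.6% and the E2F motif TTTCCCGC in 0% against 2.74%. CAGCTG is also counted among matches to the general E-box CANNTG, which was in 61.7% and 64.6%. The retinoid direct repeat shown for Rarb, searched after its values were seen, was found in 1 of 7772 measured genes with a window, Rarb itself, and in 31 of 27025 genes in all (0.115%). These shares are descriptions of letters in a window and come without a test. Protein-coding members were close to measured protein-coding genes in the length of the longest transcript, with medians of 4081 and 3832 bases, and in its GC content, 48.6% and 49.2%.

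At the threshold, the members just inside were Snrnp35, a protein of the minor spliceosome, at 1.28 and 1.01, Mrps21 at 1.65 and 1.01, and Vps72 at 1.18 and 1.00. Just outside were Rasl11b, a small GTPase, at 0.995 and 1.03, Zfp687, a zinc finger protein of the same stretch of chromosome 3, at 0.99 and 1.20, and Fhod3, a formin, at 0.98 and 1.81. Zfp687 was at 97.3 and 84.0 CPM in proliferating cells and 194 and 194 CPM in neurons, tighter than most members, so the edge of the set follows the threshold and not a gap in the values.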

How the data were processed

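For each of the 4 libraries, the authors deposited a table of read counts by gene and a table of RPKM. HISAT2, SAMtools, featureCounts, DESeq2, deepTools 3.4.3 and the build mm10 are named in the submitters' processing notes, without their roles. The deposited RPKM of a gene is its count divided by the total with the 18S row and by 1 length per gene, as checked on the values. CPM was computed from the deposited counts with the 18S row left out. The members and lists were chosen with earlier results of these data known. Genes named by rule were the 15 members with the largest smaller difference, the 8 with the highest mean CPM, every member in one of 18 lists, and the 3 on each side of the threshold. Others, and 5 further lists, were chosen after their values were seen.

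The fit over all genes used edgeR 4.0.16 in R 4.3.3 (TMM, filterByExpr with minimum count 10 and minimum total 15, glmQLFit, glmQLFTest, group alone, all 4 libraries), with two-sided p-values adjusted by Benjamini-Hochberg. DESeq2 1.42.0 was an alternative. With 2 libraries against 2, an exact permutation test of a single value cannot give a two-sided p below 0.333, so none was made. The replicate numbers were taken to mark a shared set, since both replicate 2 titles carry the same set label, and deviations of same-numbered libraries from their group means correlated with r = 0.32 over 10388 genes. Gene types, spans and promoters come from RefSeq for GRCm38.p6, the assembly of mm10, and transcripts from GENCODE M21. Figures and other values used Python 3.11.15 with numpy 2.4.6, pandas 2.3.3 and scipy 1.17.1. Length and GC content were compared for protein-coding genes alone (96.6% of those members matched), because for all members the match was 76.1% and the check void.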

Additional observations from a re-analysis of the deposited data

How the results depend on the processing

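The 92 genes rested on the scale and the count minimum. With TMM-adjusted or RLE-scaled CPM there were 140 and 146 genes, with 92 and 91 of the members among them. Without structured noncoding RNA rows in the total there were 129, and with each pair centred on its median difference 137. Pseudocounts of 0.1 and 1 CPM gave 100 and 78. With the 18S row kept in the total there were 45, and on log2 of the deposited RPKM + 0.5 there were 9. A mean count of 10 or more gave 149 genes, 50 or more gave 48, and no minimum gave 478. Labels exchanged within replicate 1, replicate 2 or both gave 180, 33 and 269. Leaving out a replicate or a library gave 74 to 1867 genes, with 45 to 92 of the members. The lowest, 74, was without proliferating replicate 2. Without replicate 1 the number was 1867, without replicate 2 it was 253, without proliferating replicate 1 it was 1511, and without neuron replicates 1 or 2 it was 145 or 148.

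Of 348 recomputed mean differences of the 29 members named by rule, 93 moved by more than the spread of the pairs and 0 changed sign. Among all members, 7 (Gm13786, Gm36123, Gm46687, Gm52215, Gm52867, LOC115488671 and Mir133a-1hg) were lower in neurons without proliferating replicate 2, and 4 of these (Gm13786, Gm36123, Gm52867 and LOC115488671) without neuron replicate 1.

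For the fit over all genes, 12 genes were called higher and 48 lower with DESeq2, and 41 and 122 without the filter. With the replicate block 0 were called higher and 3 lower, and without a scaling factor 0 and 2. Leaving out 1 library gave 3 to 29 genes higher and 11 to 84 lower, where the lone library was assumed to vary like the others. The most, 29 and 84, were without proliferating replicate 1. The cause of these changes was not tested. Depth limits the low members most: 1 count was worth up to 0.385 CPM, and 22 members had 3 counts or fewer in a proliferating library.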
